A study of Mus musculus with 10 samples.

Results

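The small proline-rich genes described here are Sprr1a, Sprr2a3, Sprr2b, Sprr2d, Sprr2e, Sprr2f, Sprr2g and Sprr2h. They were matched by symbol, through their Ensembl identifiers, and make up 8 of the 45706 genes listed in the count table of uterine RNA-sequencing at gestation day (GD) 3.5. The 8 were chosen by their measured counts in these uteri, namely the contrast of knockout with control levels, so their difference between genotypes is given as a description, and nothing is read from the number of members past a test's threshold. Uteri came from 5 control Arid1a f/f females and 5 Ltf iCre/+ Arid1a f/f females, all mature adults mated with wildtype males. Both genotypes carried the floxed Arid1a alleles, and the knockout mice differed from controls by Cre recombinase expressed from the lactoferrin (Ltf) locus, which acts in the endometrial epithelium. The paper adds that this Cre has also been reported in neutrophils and other myeloid cells. It does not exclude a contribution of Arid1a deletion in those cells. The line had a mixed background of 129S6/SvEvTac, 129P2/OlaHsd, 129S1/SvImJ and C57BL/6. RNA was taken from a piece of the whole uterus, so epithelial transcripts were measured together with stroma, muscle and immune cells. In such bulk samples, fewer cells of a type and less RNA per cell cannot be told apart.

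SPRR proteins are short proline-rich precursors of the cornified envelope, the sheath that transglutaminases cross-link under the plasma membrane of squamous epithelia. Their genes lie side by side in the epidermal differentiation complex, next to those of other envelope proteins such as involucrin and loricrin. Outside the skin, Sprr genes are known to be induced in simple epithelia under stress, inflammation or injury, and several Sprr2 genes are known to respond to estrogen in the mouse uterine epithelium. The question the genotypes address is how the uterine transcriptome before implantation differs when the epithelium has lost ARID1A, a subunit of the SWI/SNF chromatin remodeling complex.

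The 8 genes lay on chromosome 3 of GRCm38 between positions 92285417 and 92485895, in the order Sprr2a3, Sprr2b, Sprr2d, Sprr2e, Sprr2f, Sprr2g and Sprr2h on the plus strand and Sprr1a on the minus strand. The GENCODE annotation held 9 further Sprr genes in the same cluster, and it classed Sprr2g as a polymorphic pseudogene and the other 7 members as protein coding. None of the 8 overlapped another annotated gene. To set the upstream sequence of members with high, low and no counts side by side, promoters are shown from the RefSeq table for GRCm38.p6, which held 14 of the 17 Sprr genes. The sequences below are the 250 bases before each RefSeq start, read 5′ to 3′ on the gene's strand. The windows are chr3:92364937-92365186 for Sprr2f, chr3:92338890-92339139 for Sprr2d, chr3:92351893-92352142 for Sprr2e, chr3:92316455-92316704 for Sprr2b, chr3:92385435-92385684 for Sprr2h, chr3:92407741-92407990 for the non-member Sprr2i and chr3:92285054-92285303 for Sprr2a3, all on the plus strand, and chr3:92485882-92486131 on the minus strand for Sprr1a. Capitals mark matches to the AP-1 motif TGANTCA, the octamer ATTTGCAT and the TATA box TATAAA.
Sprr2f: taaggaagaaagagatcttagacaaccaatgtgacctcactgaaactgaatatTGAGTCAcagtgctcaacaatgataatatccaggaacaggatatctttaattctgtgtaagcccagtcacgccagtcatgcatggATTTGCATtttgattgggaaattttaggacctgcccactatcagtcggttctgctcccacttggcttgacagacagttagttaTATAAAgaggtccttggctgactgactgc
Sprr2d: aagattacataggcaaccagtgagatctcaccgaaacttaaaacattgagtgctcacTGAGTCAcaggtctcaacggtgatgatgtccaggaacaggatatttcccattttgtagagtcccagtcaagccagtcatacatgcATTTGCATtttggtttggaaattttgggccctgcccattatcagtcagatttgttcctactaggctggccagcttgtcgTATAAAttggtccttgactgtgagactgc
Sprr2e: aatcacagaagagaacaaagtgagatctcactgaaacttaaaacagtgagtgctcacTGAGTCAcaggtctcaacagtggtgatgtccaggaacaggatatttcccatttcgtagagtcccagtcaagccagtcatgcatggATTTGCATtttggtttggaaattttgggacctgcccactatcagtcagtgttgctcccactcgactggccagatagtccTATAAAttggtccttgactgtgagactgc
Sprr2b: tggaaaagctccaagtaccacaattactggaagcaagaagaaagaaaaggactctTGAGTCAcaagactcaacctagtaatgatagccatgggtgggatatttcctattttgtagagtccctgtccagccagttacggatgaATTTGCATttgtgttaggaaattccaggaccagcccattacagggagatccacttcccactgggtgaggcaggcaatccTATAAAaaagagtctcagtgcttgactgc
Sprr2h: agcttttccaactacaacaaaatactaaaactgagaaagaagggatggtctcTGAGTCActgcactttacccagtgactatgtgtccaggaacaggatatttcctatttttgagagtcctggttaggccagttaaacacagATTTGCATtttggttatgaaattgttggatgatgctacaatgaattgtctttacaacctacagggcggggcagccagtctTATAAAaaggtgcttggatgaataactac
Sprr2i: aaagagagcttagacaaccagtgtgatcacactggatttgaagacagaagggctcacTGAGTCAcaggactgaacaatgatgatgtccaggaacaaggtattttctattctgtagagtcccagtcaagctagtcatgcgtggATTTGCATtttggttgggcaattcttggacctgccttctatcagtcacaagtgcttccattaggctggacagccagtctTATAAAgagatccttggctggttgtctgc
Sprr2a3: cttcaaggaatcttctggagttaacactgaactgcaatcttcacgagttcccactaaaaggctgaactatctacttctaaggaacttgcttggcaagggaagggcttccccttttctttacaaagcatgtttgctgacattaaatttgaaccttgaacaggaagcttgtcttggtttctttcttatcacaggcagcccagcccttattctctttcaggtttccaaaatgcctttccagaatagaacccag
Sprr1a: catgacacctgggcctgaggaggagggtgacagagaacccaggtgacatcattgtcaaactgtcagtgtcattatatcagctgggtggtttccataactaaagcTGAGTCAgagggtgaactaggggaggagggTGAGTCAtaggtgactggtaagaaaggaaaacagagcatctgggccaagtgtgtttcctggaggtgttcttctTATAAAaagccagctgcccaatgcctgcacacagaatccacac

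In Sprr2f, the member with the highest level, the window held 1 AP-1 match at positions -197 to -191, the octamer at -112 to -105 and TATAAA at -29 to -24, counted from the RefSeq start. Sprr2b, Sprr2d, Sprr2e and Sprr2h held the same 3 motifs in the same order, and so did Sprr2i, for which no read was counted in any uterus. Sprr1a held 2 AP-1 matches, at -146 to -140 and -116 to -110, and no octamer. The window of Sprr2a3 held none of the 3. On both strands and over the whole windows, which run to 50 bases after the start, AP-1 matches occurred in 9 of the 14 Sprr promoters and in 7.81% of all 32851 promoters. The octamer occurred in 7 of 14 Sprr promoters and in 1.74% of all, and TATAAA in 10 of 14 and 13.6%. These counts do not come from independent sequences, since the aligned windows of Sprr2d and Sprr2e were 88.7% identical and those of Sprr2e and Sprr2f 74.8%. The estrogen response element, GGTCA and TGACC parted by 3 bases, was found in 0 of the 14 windows and in 0.07% of all. Its single arm GGTCA occurred in 2 of 14, in Sprr2f and Sprr3, against 40.5% of all. The STAT motif TTCNNNGAA occurred in 2 of 14 against 8.30%, and the Ets core GGAA, which nearly any window holds, in 14 of 14 against 96.0%.

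The libraries held 59296537 to 72702411 counts each, so that 3 counts stood at 0.0418 to 0.0507 CPM, the read count relative to a library size scaled by the trimmed mean of M values (TMM). Of all genes, 25146 averaged 1 count or more over the libraries and were tested with the quasi-likelihood test of edgeR. At an adjusted p under 0.05, 9.70% of them differed between genotypes, 5.19% being higher in knockout uteri and 4.51% lower. Arid1a itself (chromosome 4, 133679008 to 133756769) measured 213 ± 22.9 CPM in control and 185 ± 15.9 CPM in knockout uteri (SD, n = 5 each), with 4 of 5 knockout uteri below every control and an adjusted p of 0.201 in edgeR.

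Sprr2f was the main Sprr transcript of the control uterus. It had 309, 396, 230, 800 and 1210 counts in control uteri 1 to 5, and 2660, 141, 152, 725 and 8750 counts in knockout uteri 1 to 5. Knockout uteri 5 and 1 were above every control, knockout 4 lay within the control range, and knockout 2 and 3 were below every control, so the genotypes overlapped on both sides. Mean levels were 8.44 ± 5.86 CPM in control and 36.7 ± 52.8 CPM in knockout uteri (SD, n = 5 each), a ratio of 4.36. Knockout 5 held 70.4% of the knockout counts, and without it the ratio was 1.69. The fitted log2 fold change was 2.12 (SE 0.99), and it ranged from 0.76 to 2.56 when each uterus was left out in turn.

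Sprr2g was the exception among the members, because its genotypes did not overlap. Control uteri 1 to 5 had 44, 20, 53, 23 and 54 counts and knockout uteri 1 to 5 had 293, 93, 121, 265 and 505. The lowest knockout uterus, replicate 2, was thus above the highest control. The level was 0.565 ± 0.253 CPM in control and 3.86 ± 2.30 CPM in knockout uteri, a ratio of 6.83 that was 5.30 without knockout 5. The log2 fold change was 2.77 (SE 0.47), with a range of 2.41 to 2.97 over the 10 fits that each left out 1 uterus. Groups without overlap made up 10.7% of all tested genes, 5.53% being higher and 5.16% lower in knockout uteri.

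Sprr1a, a cornified envelope precursor that is also known as a gene induced in injured neurons, lies at the far end of the cluster. It had 5, 22, 12, 54 and 59 counts in control uteri 1 to 5 and 119, 11, 13, 33 and 334 in knockout uteri 1 to 5. As for Sprr2f, knockout 5 and 1 were above every control, and the other knockout uteri lay within the control range. Means were 0.436 ± 0.350 and 1.51 ± 1.98 CPM, a ratio of 3.48, or 1.57 without knockout 5. The log2 fold change was 1.80 (SE 0.92).

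Sprr2d and Sprr2b were almost absent from control uteri and abundant in 1 knockout uterus. Sprr2d had 0, 3, 0, 0 and 5 counts in controls and 48, 0, 6, 9 and 5001 counts in knockout uteri 1 to 5. Sprr2b had 0, 0, 0, 2 and 2 counts in controls and 7, 0, 0, 2 and 2390 in knockout uteri. Knockout 5 thus held 98.8% of the knockout counts of Sprr2d and 99.6% of those of Sprr2b, while knockout 2 had no count of either. The ratio of pooled counts per library size was 682 for Sprr2d (95% exact interval 346 to 1581) and 646 for Sprr2b (252 to 2374). These intervals cover counting error only and say nothing of the spread between uteri. Without knockout 5 the ratio of mean CPM was 10.8 for Sprr2d and 3.04 for Sprr2b. Their log2 fold changes, 9.21 (SE 2.50) and 9.02 (SE 2.65) over all 10 uteri, became 3.32 and 1.47 without that uterus.

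Sprr2a3 had 0, 0, 3, 0 and 2 counts in control uteri and 132, 5, 0, 11 and 552 counts in knockout uteri 1 to 5. Knockout uteri 1, 2, 4 and 5 were above every control, and knockout 3 had no count. The pooled ratio was 151 (95% exact interval 64.4 to 466, counting error only), and knockout 5 held 78.9% of the knockout counts. The log2 fold change was 6.98 (SE 1.76), with a range of 5.15 to 7.85 when each uterus was left out.

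Sprr2e and Sprr2h were hardly detected in either genotype. Sprr2e had 3, 2, 3, 3 and 0 counts in control uteri and 9, 5, 0, 4 and 7 in knockout uteri, a log2 fold change of 1.23 (SE 0.83). The 7 counts of Sprr2e in knockout 5 stand beside 5001 of Sprr2d in the same uterus, although the promoter windows of the pair were the most alike after those of Sprr2a1 and Sprr2a2. Sprr2h had 4 counts in knockout 2 and 0 in the other 9 uteri, and did not reach the mean count needed for a fit. A count of 0 allows a level of up to 0.0507 CPM in the shallowest library.

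**Figure D1:**
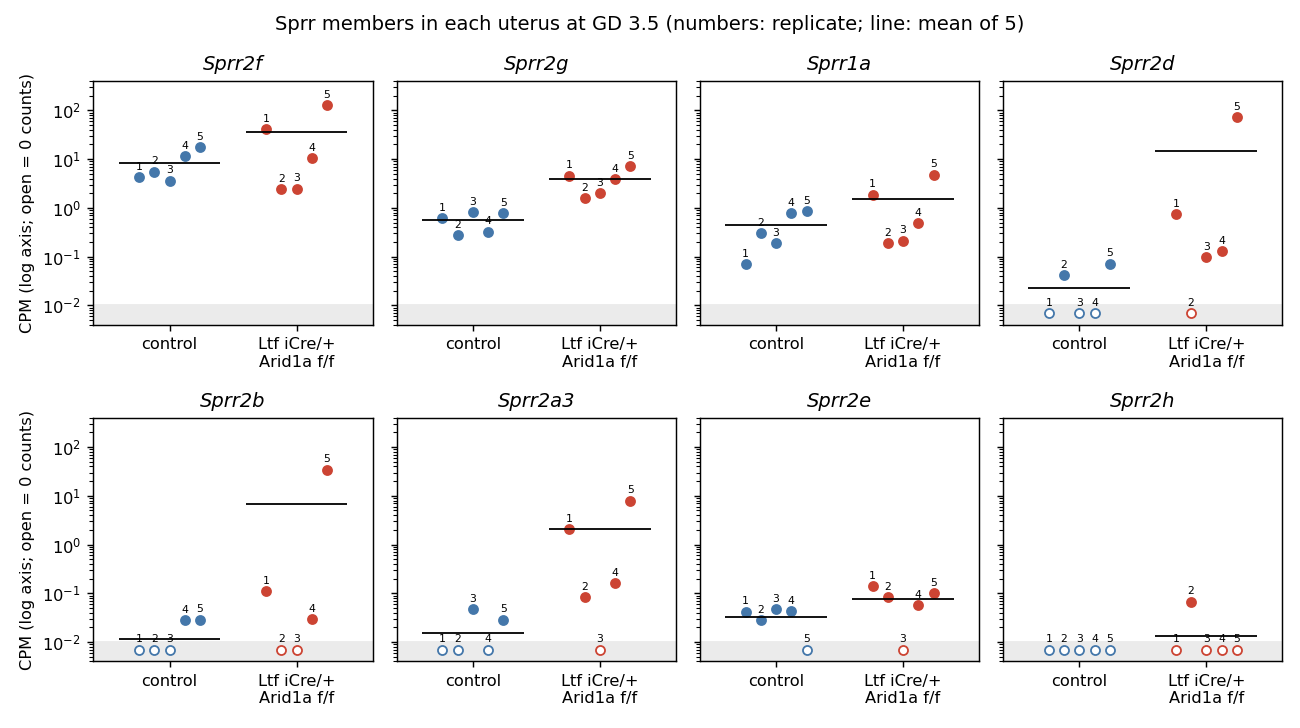
Level of each Sprr member in each uterus in CPM on a log axis, with the replicate number at each point, open points in the grey band for 0 counts and a line for the mean of 5. Only for Sprr2g do all 5 knockout uteri (lowest 1.57 CPM) lie above all 5 controls (highest 0.830 CPM), while Sprr2b and Sprr2d reach 34.6 and 72.3 CPM in knockout 5.

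Of the 8 members, 7 were fitted and all 7 had a higher mean in knockout uteri, with a median log2 fold change of 2.77 beside 0.0262 over all tested genes. Sprr2a3, Sprr2d and Sprr2g passed the threshold in edgeR, 3 members upward and 0 downward, beside 5.19% upward and 4.51% downward of all genes. DESeq2 passed 2 (Sprr2a3 and Sprr2g), beside 16.2% of all genes, and gave no adjusted p for Sprr2b and Sprr2d. These counts follow from the choice of the members and are not read as a result. In edgeR the count was 2 without knockout 5 (Sprr2a3 and Sprr2g), 1 when any single control uterus was left out (Sprr2g) and 4 without knockout 2 or knockout 3 (with Sprr2b). Per kb of exon, the scale on which genes can be set side by side, control levels were 13.9 ± 9.62 CPM per kb for Sprr2f, 0.868 ± 0.389 for Sprr2g and 0.541 ± 0.435 for Sprr1a. The other members had at most 0.0493 ± 0.0297 CPM per kb, the value of Sprr2e. Sprr2f stood clear of the rest in every control uterus, whereas Sprr2g and Sprr1a overlapped, as did Sprr2e, Sprr2d, Sprr2b and Sprr2a3 among themselves. In knockout uteri the means ran from 60.3 ± 86.65 for Sprr2f over 21.5 ± 47.4 for Sprr2d, 8.86 ± 19.7 for Sprr2b, 5.93 ± 3.54 for Sprr2g and 1.88 ± 2.46 for Sprr1a to 0.715 ± 1.19 for Sprr2a3, and apart from Sprr2g each of these SDs exceeded its mean. The place of Sprr2a3 is uncertain in both genotypes, because much of its sequence also occurs in other genes, as given below.

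The summed members ranged from 4.72 to 19.1 CPM in control uteri, with a median of 6.17. In knockout uteri 1 to 5 the sum was 51.2, 4.38, 4.77, 15.2 and 254 CPM. Knockout 1 and 5 were above every control, knockout 4 and 3 within the control range and knockout 2 below it. The means were 9.52 ± 6.23 and 65.9 ± 107 CPM, a ratio of 6.92 that was 1.99 without knockout 5 (18.9 ± 22.1 CPM, n = 4).

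The make-up of the sum also differed between uteri. Sprr2f gave 76.4% to 90.8% of the Sprr counts in control uteri and 81.4%, 54.4%, 52.1%, 69.1% and 49.9% in knockout uteri 1 to 5. All but knockout 1 were therefore below every control. In knockout 2, 3 and 4 the remainder was mostly Sprr2g, with shares of 35.9% (95% Wilson interval 30.3 to 41.9), 41.4% (35.9 to 47.2) and 25.3% (22.7 to 28.0). Control shares of Sprr2g were 12.2%, 4.51%, 17.6%, 2.61% and 4.05% in uteri 1 to 5. In knockout 5 Sprr2g gave 2.88%, and Sprr2d and Sprr2b gave 28.5% and 13.6%. Knockout 2 and 3 thus had no more Sprr RNA than controls but a larger part of Sprr2g, and knockout 5 had another mixture again. The intervals cover counting error only.

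**Figure D2:**
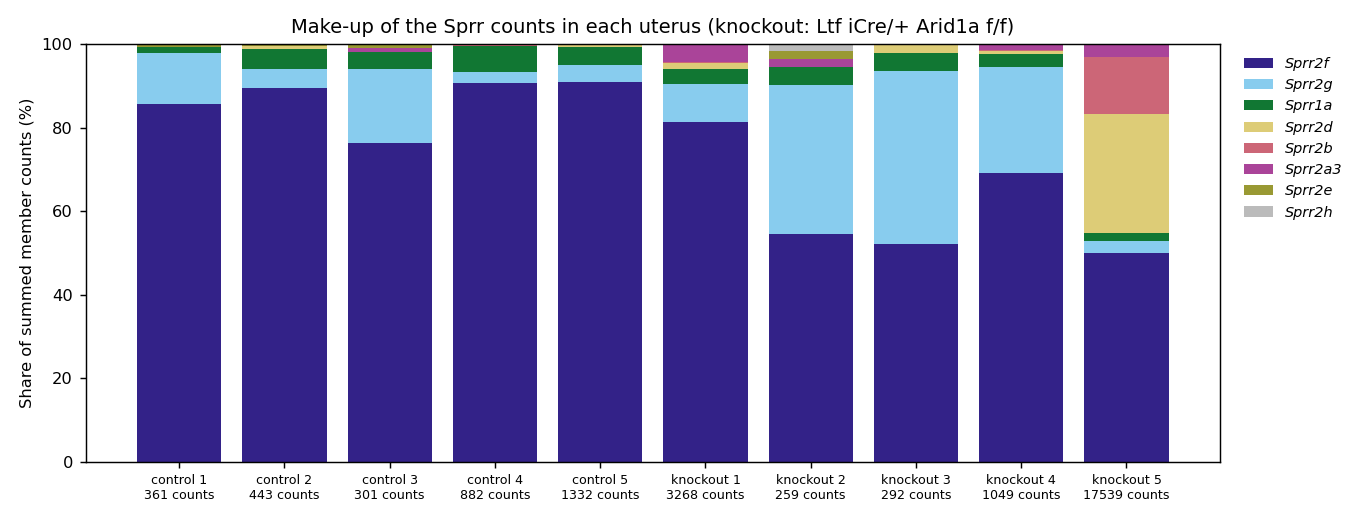
Share of each member in the summed Sprr counts of each uterus in percent, with the number of counts under each bar. Sprr2f fills 76.4% to 90.8% of the control bars, Sprr2g takes 35.9% and 41.4% in knockout 2 and 3, and Sprr2d takes 28.5% in knockout 5.

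Reads of close paralogs can be counted on the wrong gene or left uncounted, and this was measured on the GENCODE transcripts with words of 50 bases, the length of the reads. No 50-base word of Sprr2g, Sprr2h or Sprr1a occurred in a transcript of another gene. The share was 0.714% for Sprr2f, 4.27% for Sprr2d, 10.2% for Sprr2e and 14.1% for Sprr2b, and no fragment of 300 or 400 bases of these had both ends within 1 other gene. Sprr2a3 was different, with 61.1% of its words in another gene and 38.0% of its fragments of 300 bases matching 1 other gene at both ends, its main partners being Sprr2a1 and Sprr2a2. Its counts, and those of Sprr2a1 (96.3% of words shared) and Sprr2a2 (96.5%), are therefore uncertain one by one. Whether the counting took account of the strand is not given in the sources used here.

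**Figure D3:**
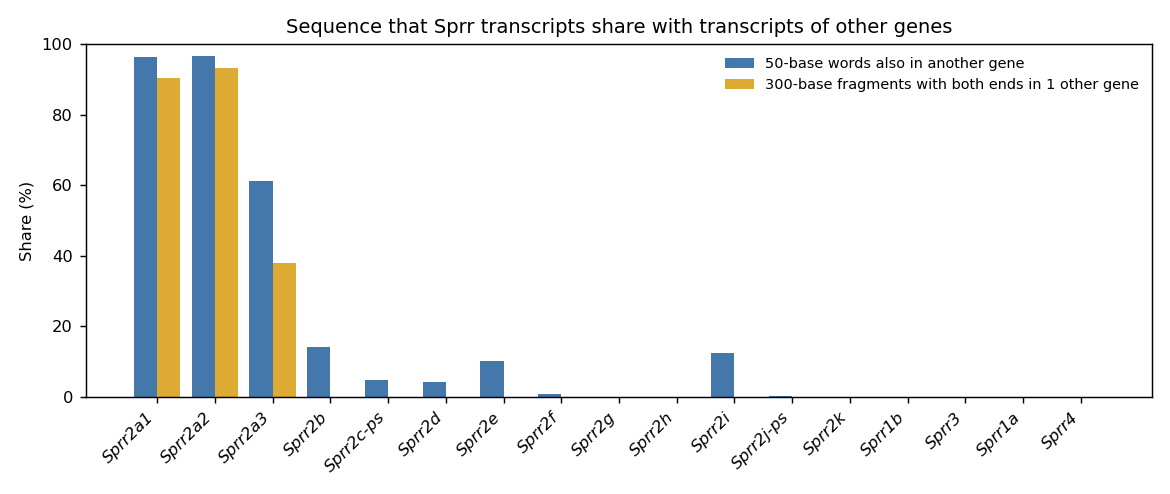
Share of the 50-base words of each Sprr gene that occur in transcripts of other genes (blue) and share of its 300-base fragments whose ends both lie in 1 other gene (yellow), in percent. Sprr2a1, Sprr2a2 and Sprr2a3 stand at 96.3%, 96.5% and 61.1% of words, and every other Sprr gene is at 14.1% or less.

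The remaining Sprr genes were nearly silent. Of the 9, 6 had no count in any uterus (Sprr1b, Sprr2c-ps, Sprr2i, Sprr2j-ps, Sprr2k and Sprr4), and Sprr3 had 3 counts in all, in knockout uteri. Sprr2a1 had 0 counts in controls and 1, 0, 0, 3 and 8 in knockout uteri 1 to 5. With 3 counts set over the control group, this was 4.31-fold higher. Sprr2a2 had 0 counts in controls and 4, 0, 0, 0 and 13 in knockout uteri, 6.11-fold higher on the same footing. Knockout 5 held 66.7% and 76.5% of these counts, and without it each gene had 4 counts and a fold of 1.83. These folds leave out the counting error of the knockout counts and the spread between uteri, so they are not lower bounds. Neither passed the threshold in edgeR (adjusted p = 0.139 for Sprr2a1 and 0.164 for Sprr2a2), and DESeq2 gave no adjusted p for them.

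Around the cluster, 50 other annotated genes lay within 500 kb of the first and last member, and 35 of these had no count in any uterus. Of the 8 that could be tested, 7 had a positive and 1 a negative log2 fold change, with a median of 0.86, and 1 passed the threshold, while 9.70% of all genes did. That gene was Gm35439, a lincRNA gene on the plus strand of chromosome 3 (92170221 to 92177907), 37.9 kb before Sprr2a1 and 108 kb before Sprr2a3, which overlapped no other gene. It measured 0.0559, 0.0836, 0.188, 0.213 and 0.187 CPM in control uteri 1 to 5 and 2.02, 0.608, 0.262, 1.29 and 3.31 CPM in knockout uteri 1 to 5. All knockout uteri were above all controls, and knockout 5 and 1 were again the highest, with replicates 2 and 3 the lowest. The log2 fold change was 3.36 (SE 0.66, adjusted p = 0.0106 in edgeR), and it passed in all 10 fits that left out a uterus. The tested envelope genes among these neighbours, Lor and Ivl, did not pass. Loricrin (Lor), named here after its values were seen, measured 0.666 ± 0.0804 CPM in control and 0.441 ± 0.0927 CPM in knockout uteri, with all 5 knockout uteri below all controls and an adjusted p of 0.135 in edgeR. Involucrin (Ivl) measured 0.0456 ± 0.0531 and 0.0981 ± 0.0849 CPM (adjusted p = 0.532).

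**Figure D4:**
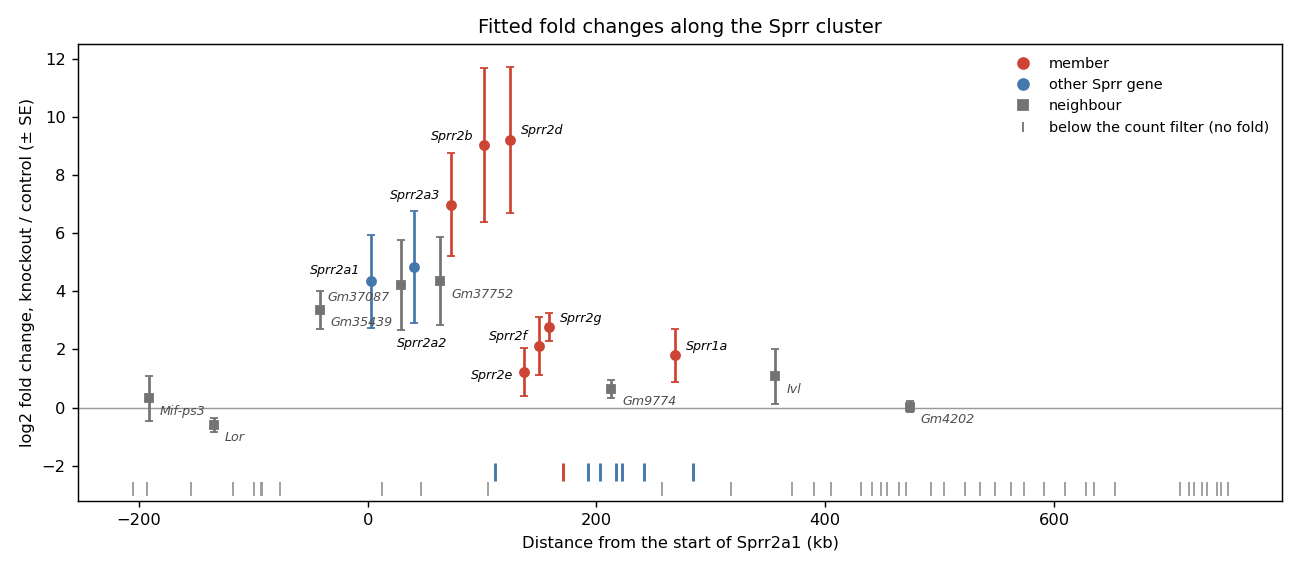
Fitted log2 fold change (± SE) of Sprr members (red), other Sprr genes (blue) and neighbours (grey squares) against distance from the start of Sprr2a1 in kb, with ticks for genes below the count filter. Sprr2d and Sprr2b stand at 9.21 and 9.02, Lor at -0.60, and the fitted values of Sprr2a1, Sprr2a2 and Gm37087, which had 0 counts in all controls, depend on the prior count.

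Of 20 genes for other cornified envelope proteins and the transglutaminases that join them, 13 could be tested, 9 of them with a positive and 4 with a negative fold change (median 0.47). Evpl and Dsp rose, 2 of 13 beside 5.19% of all genes. Evpl, which codes for envoplakin, a plakin that links the envelope to desmosomes, measured 7.44 ± 1.37 CPM in control and 18.5 ± 8.59 CPM in knockout uteri (log2 fold change 1.31, adjusted p = 0.0128 in edgeR). Dsp, which codes for the desmosome protein desmoplakin, measured 79.7 ± 9.17 and 172 ± 76.4 CPM (log2 fold change 1.11, adjusted p = 0.0159). All knockout uteri were above all controls for both, and knockout 1, not knockout 5, was the highest. The transglutaminase genes Tgm1, Tgm3 and Tgm5, chosen after their values were seen, did not pass (adjusted p = 0.134, 0.365 and 0.278), and Tgm1, the enzyme of the epidermal envelope, measured 1.04 ± 0.573 and 2.35 ± 1.36 CPM.

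Among 16 regulators known to act on Sprr or other epithelial promoters (AP-1, Ets, Klf, Grhl, Stat and octamer factors and the estrogen receptor), 14 had a positive fold change and 2 passed, both upward, beside 5.19% of all genes, with a median of 0.23. Grhl3, a grainyhead factor of epidermal barrier formation, measured 0.168, 0.0418, 0.0470, 0.156 and 0.115 CPM in controls 1 to 5 and 13.8, 1.30, 1.80, 1.79 and 2.97 CPM in knockout uteri 1 to 5. It was thus higher in every knockout uterus, also in the replicates 2 and 3 with little Sprr2f, and its log2 fold change was 5.33 (SE 0.80, adjusted p = 0.00314 in edgeR). Elf3, an epithelial Ets factor, measured 44.7 ± 4.62 CPM in control and 167 ± 158 CPM in knockout uteri (log2 fold change 1.90, adjusted p = 0.0373), and passed in 3 of the 10 fits that left out a uterus. Esr1, the estrogen receptor alpha, chosen after its values were seen, measured 540 ± 52.8 and 456 ± 116 CPM (adjusted p = 0.378), and the octamer factor Pou2f1 61.3 ± 7.38 and 63.6 ± 11.8 CPM (adjusted p = 0.840).

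Of 12 genes that estrogen is known to induce in the uterus, 11 had a positive fold change and 4 passed, all upward, beside 5.19% of all genes, with a median of 1.48. Gjb2, the gap junction protein connexin 26, rose with a log2 fold change of 5.81 (adjusted p = 0.00450 in edgeR). Lcn2, the siderophore binding lipocalin, rose by 8.60 on the log2 scale (adjusted p = 0.0139), with 635, 4.61, 2.35, 32.8 and 1659 CPM in knockout uteri 1 to 5 and 0.838 to 1.71 CPM in controls. Ramp3 and the mucin gene Muc1 rose by 1.37 and 2.01 (adjusted p = 0.0216 and 0.0239), and passed in 7 and 5 of the 10 fits that left out a uterus. The list summed to 1324 to 1609 CPM in controls and to 3615, 1089, 1417, 1673 and 5174 CPM in knockout uteri 1 to 5. The knockout uteri thus stood in the same order in this sum as in the summed Sprr members, 5, 1, 4, 3 and 2, while the order of the control uteri differed. Igf1, named after its values were seen, was the 1 list gene with a negative fold change (-0.58). It made up most of the sum in every control (1068 ± 139 CPM on average). In knockout uteri 1 to 5 it measured 561, 537, 996, 1027 and 443 CPM. The place of knockout 3 above knockout 2 in the sum therefore rests on Igf1. In the Sprr sum these uteri differed little, at 4.77 and 4.38 CPM. In knockout 5 and 1 the largest parts of the list sum were Lcn2 and C3. C3, named after its values were seen, did not pass (adjusted p = 0.106 in edgeR). It measured 844, 275, 196, 307 and 1977 CPM in knockout uteri 1 to 5 and 238 ± 76.2 CPM in controls.

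Markers of other cells moved with some of the values. The 9 uterine epithelial markers summed to 843 to 1117 CPM in controls and to 1184 to 2320 CPM in knockout uteri, and 6 of 9 rose, beside 5.19% of all genes, among them Krt7 and Cdh1 (log2 fold changes 1.83 and 0.82, adjusted p = 0.0140 and 0.0106 in edgeR). Knockout 2 and 3, with 1371 and 1184 CPM, were above every control in this sum, though Sprr2f there was below every control. The 5 gland markers summed to 63.0 to 110 CPM in controls and to 7.23 to 47.0 CPM in knockout uteri, and Foxa2, the gland transcription factor, fell, 1 of 5 beside 4.51% of all genes (log2 fold change -1.13, adjusted p = 0.00570). The part of epithelial and gland content in the Sprr values was not tested.

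The 7 neutrophil markers summed to 5.94 to 23.1 CPM in controls and to 15.7, 12.3, 13.0, 23.1 and 872 CPM in knockout uteri 1 to 5. Ly6g and Mmp8 rose, 2 of 7 beside 5.19% of all genes (adjusted p = 0.0294 and 0.0440 in edgeR, passing in 6 and 4 of the 10 fits that left out a uterus), and S100a8, chosen after its values were seen, reached 290.0 CPM in knockout 5 beside 0.777 ± 0.461 CPM in controls. Knockout 5, the uterus with most Sprr2b and Sprr2d, was thus the only one above the range of the controls for this sum, and all 7 markers there were above every control. Knockout 1, with 51.2 CPM of summed Sprr members, was within that range. There 2 of the 7 markers were above every control, Ly6g at 1.71 CPM (highest control 0.196) and Mmp8 at 0.110 CPM (highest control 0.0852). In knockout 2, 3 and 4 the number was 2, 1 and 3 of 7, and Mmp8 was above every control in all 5 knockout uteri. The share of all genes above every control in each uterus was not counted. The part of these cells in the values of knockout 5 was not tested. Of 7 macrophage markers 0 passed in edgeR and 2 with DESeq2, and of 7 myometrial markers 0 and 1. Of all genes 9.70% passed in edgeR and 16.2% with DESeq2. At an unadjusted p under 0.05 in edgeR there were 4 macrophage markers and 1 myometrial marker, beside 6 neutrophil and 3 stromal genes. The share of all genes at that level was not counted, so these numbers are not read as a result. Of 8 stromal genes 2, Dcn and Vim, fell, beside 4.51% of all genes (adjusted p = 0.0109 and 0.0139 in edgeR).

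Squamous epithelium, the classic site of Sprr expression, could reach a uterine sample from the cervical end, and its 14 markers were examined for that reason. Their sum was 11.4, 26.2, 25.3, 37.6 and 48.5 CPM in control uteri 1 to 5 and 58.0, 13.2, 16.5, 24.9 and 20.6 CPM in knockout uteri 1 to 5. Control 5 and 4, the highest for Sprr2f and Sprr1a, were also the highest for these markers, and control 1 was the lowest for Sprr1a and for the markers. Sprr2f was lowest in control 3 instead, at 3.60 CPM. The neutrophil sum was also highest in control 5 (23.1 CPM) and lowest in control 1 (5.94 CPM), but had control 2 (20.2 CPM) above control 4 (15.1 CPM). In knockout 5 the sum lay within the control range, and single markers went both ways, 4 of the 13 tested being above every control, 4 below every control and 5 within the control range. The share of all genes outside the control range in this uterus was not counted. The following were chosen after their values were seen. Among those above were the basal keratin gene Krt14 at 0.752 CPM and Sfn at 11.7 CPM, and among those below was the keratin gene Krt15 at 0.116 CPM. Sfn, at 0.89 to 1.3 CPM in controls, made up most of the sum in knockout 5 and, at 39.0 CPM, in knockout 1. The place of both sums relative to the controls therefore rests on this 1 marker. Krt5, the basal partner of Krt14, stood within the control range at 0.130 CPM, and Krt6a had no count in any uterus. Of the 13 markers tested, Dsg3 and Krt10 were lower (log2 fold changes -3.09 and -1.36, adjusted p = 0.00576 and 0.0258 in edgeR) and Sfn higher (3.51, adjusted p = 0.00886), beside 4.51% of all genes lower and 5.19% higher. The part of squamous cells in the control values was not tested.

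**Figure D5:**
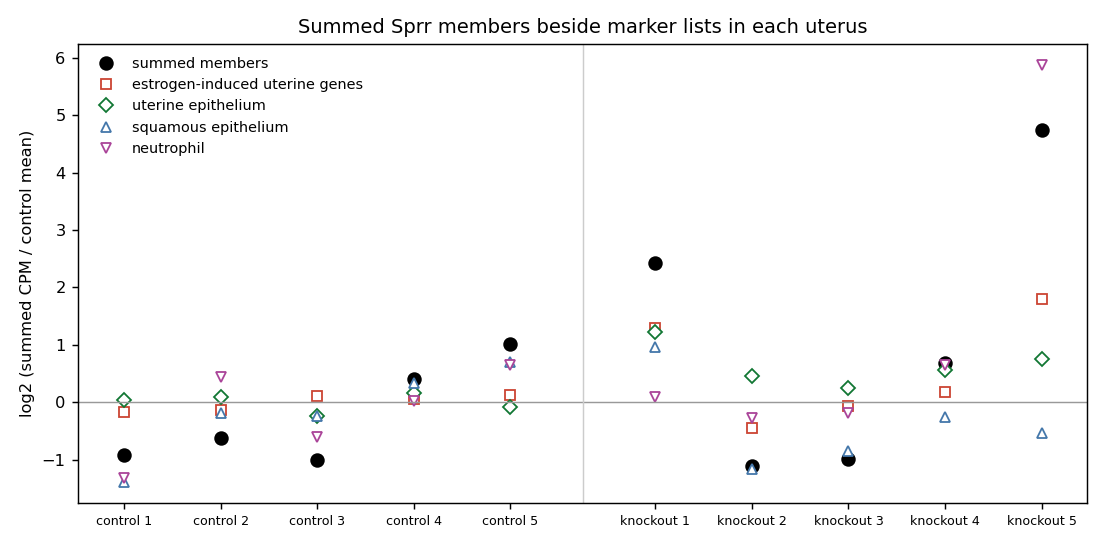
Log2 ratio of the summed CPM of the Sprr members and of 4 gene lists to the control mean, in each uterus. The Sprr members reach 4.74 in knockout 5 and 2.43 in knockout 1, and the neutrophil markers 5.88 in knockout 5 and 0.0845 in knockout 1. The squamous markers, whose sum in these uteri is mostly Sfn, stand at -0.53 in knockout 5 and 0.96 in knockout 1.

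The genes whose profile over the 10 uteri was most like that of the summed members were sought among 14587 genes with a mean of at least 100 counts. Likeness was the root mean square difference of log2 CPM, each gene centred on its control mean. Pigr, the receptor that carries IgA across epithelia, was the closest at 0.716, followed by Ltbp2 at 0.776, the mucosal chemokine gene Ccl28 at 0.783, 1700066B19Rik at 0.787 and Serpinb11 at 0.824. Pigr measured 33.7 CPM on average in control and 201 CPM in knockout uteri, and relative to the control mean it stood at 4.53 in knockout 5 and 1.70 in knockout 1 on the log2 scale, but at -0.45 and -0.46 in knockout 2 and 3. For Sprr1a alone the closest were 1700066B19Rik at 0.701, Igkv6-32 at 0.819, Slc35g1 at 0.821, BC048679 at 0.850 and Stra6l at 0.852.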

How the data were processed

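Uterine mRNA of 5 control and 5 Ltf iCre/+ Arid1a f/f mice was sequenced in 50-base paired reads. The authors trimmed reads with cutadapt 1.18 and Trim Galore 0.6.4, checked them with FastQC 0.11.9, aligned them to GRCm38 with STAR 2.7.3a and deposited whole-number counts per gene, not normalized or filtered. Neither the strand setting nor the annotation release was given in the sources used here. Table columns were assigned to samples by their names, and 0 columns belonged to samples outside the series.

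Symbols came from GENCODE for GRCm38 (45143 of 45706 identifiers matched). Genes averaging 1 count or more over the libraries were tested with edgeR 4.0.16 in R 4.3.3 (TMM, quasi-likelihood test, genotype only, Benjamini-Hochberg over all tested genes, threshold 0.05). DESeq2 1.42.0 was the alternative. Replicates were numbered by their labels and taken as separate mice, since the paper gives n as animals. The members and all gene lists were chosen with earlier results of these data known. Named were all Sprr genes, Arid1a, up to 4 genes per list with the lowest adjusted p among those past the threshold, and the 5 genes most like the summed members and Sprr1a, besides genes said to be chosen later. Alternatives were normalization, filters, DESeq2, the replicate number as a block, the prior count and leaving out each uterus. Procedures were tested on simulated data. Promoter motifs and 50-base words were searched in Python 3.11.15, and drawings made with matplotlib 3.10.9.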

Additional observations from a re-analysis of the deposited data

Results flagged for a closer look

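Of 17 sets of 5 uteri examined (each member and their sum in each genotype, where any count was present), 5 held 1 uterus far from the other 4, by Dixon's ratio of the gap to the range. For normally distributed values chance gives such a uterus in about 1 in 20 sets. The CPM values here were skewed, so that rate does not hold for them, and these sets share uteri and reads. The number of sets found is therefore not read as more than chance gives. Knockout 5 stood apart for Sprr2b at 34.6 CPM, for Sprr2d at 72.3 CPM, for Sprr2a3 at 7.99 CPM and for the summed members at 254 CPM. Knockout 2 stood apart for Sprr2h at 0.0676 CPM, which is 4 counts in a gene with no count elsewhere.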

How the results depend on the processing

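Over 295 alternative values, 257 stayed within the limits set for a change, 38 moved and 0 reversed. The limits were wide for the members. Without knockout 5 the log2 fold change of Sprr2f went from 2.12 to 0.76. The log2 ratio of the summed members went from 2.79 to 0.99, and both still counted as within the limits. Genes past the threshold numbered 2438 with edgeR and 4062 with DESeq2, and 1204 to 2381 when 1 uterus was left out, falling to 1204, 1248 and 1414 without controls 2, 3 and 4. In the estrogen list 4 genes passed, 1 with the replicate number as a block and 2 to 6 without 1 uterus, with 2 after leaving out control 2, 3 or 5. Among the regulators 2 passed, 1 with the replicate block and 1 to 2 without 1 uterus (1 without any control, knockout 1 or knockout 5). Uterine epithelial markers past the threshold were 2 to 7 and neutrophil markers 0 to 2 without 1 uterus. Without knockout 5 the log2 fold change was 1.47 for Sprr2b and 3.32 for Sprr2d. The cause was not tested. Mice with the same number were little alike (correlation of their deviations -0.0529 to 0.128, beside 0.0367 to 0.103 for the best match with another number). These values do not settle whether mice were paired, and the paper used littermates where it could. The replicate block gave 1704 genes and a log2 fold change of 0.82 for Sprr2f. A stricter filter (filterByExpr) removed Sprr2a3, Sprr2b, Sprr2d and Sprr2e, whose control counts of 0 to 5 limit any fold.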
